A study of Mus musculus with 12 samples.

Results

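Myl9, Col5a2, Thbs1 and Serpinb2 are 4 of the 40481 genes in a table of RNA sequencing levels from cultured mouse hematopoietic stem cells (HSCs). They were chosen by their measured levels, which were highest in fetal liver cells carrying ETV6-RUNX1, so that pattern is described below and not tested. ETV6-RUNX1 joins a pair of transcription factor genes in a common childhood B-cell leukemia, and the mouse allele used here was inducible (iE/R). The study compared 4 groups of 3 libraries: wild-type (WT) and ETV6-RUNX1 HSCs from the bone marrow of adult mice aged 8 weeks, and WT and ETV6-RUNX1 HSCs sorted from fetal liver at embryonic day E14.5. All 4 groups, the WT cells included, were kept for 3 days in an HSC expansion culture with doxycycline at 1 µg/mL, the drug that switches on the inducible gene. The labels do not say whether replicates came from separate animals or cultures, or which cells express the transgene, so p-values measure only the spread between these samples.

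The genes have different roles. Myl9 encodes a regulatory light chain of the myosin II of smooth muscle and nonmuscle cells; its phosphorylation by myosin light chain kinase and other kinases lets myosin pull on actin. Col5a2 encodes a chain of type V collagen, a fibril-forming collagen that joins chains from other genes and helps to set the diameter of collagen fibrils. Thbs1 encodes thrombospondin-1, a secreted matricellular protein that binds CD36, CD47 and integrins and is stored in the alpha granules of platelets. Serpinb2 encodes plasminogen activator inhibitor 2, an inhibitor of urokinase and of tissue plasminogen activator made largely inside cells. It is therefore neither a matrix nor a contractile protein.

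Promoter sequence is shown for the members that move together here and that the RefSeq promoter table (GRCm38.p6) holds, which were Myl9 and Serpinb2 (2 of 4). The runs are written 5′ to 3′ on the gene's strand, with matches to the motifs searched in capitals. The Myl9 run is chr2:156775214-156775419, plus strand, in a window whose start site is base 156775464, and the Serpinb2 run is chr1:107511173-107511422, plus strand, ending at the base before the start site at 107511423.
Myl9: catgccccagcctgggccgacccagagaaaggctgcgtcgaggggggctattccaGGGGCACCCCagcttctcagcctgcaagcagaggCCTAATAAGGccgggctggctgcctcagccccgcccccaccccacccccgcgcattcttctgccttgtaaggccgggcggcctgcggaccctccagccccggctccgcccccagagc
Serpinb2: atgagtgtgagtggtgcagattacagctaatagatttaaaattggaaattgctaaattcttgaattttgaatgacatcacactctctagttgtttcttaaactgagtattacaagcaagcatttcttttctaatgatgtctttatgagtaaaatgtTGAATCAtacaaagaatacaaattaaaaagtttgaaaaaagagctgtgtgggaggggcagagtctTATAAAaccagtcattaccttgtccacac
In Myl9 the first capitals are an NF-kB site, 195 to 186 bases before the start, and the second are an SRF CArG box at 161 to 152 bases, the element bound by serum response factor. Serpinb2 held TGANTCA, the AP-1 element, at 94 to 88 bases and TATAAA at 29 to 24 bases before its start. Both strands were also searched for GGAATG (TEAD), TGTGGT (RUNX), CCGGAA (ETS) and the ISRE (GAAA, any pair of bases, GAAA), which were not in either window, and no matches overlapped. Among 32851 promoter windows of 250 bases, a CArG box was in 1.47%, an NF-kB site in 3.90%, TGANTCA in 6.75% and TATAAA in 12.4%. The shares were 12.6% for GGAATG, 14.05% for TGTGGT, 12.03% for CCGGAA and 2.98% for the ISRE. A match is a description of letters and says nothing of binding.

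Library totals ranged from 32.3 to 64.5 M reads, and levels are reads scaled to the library total (CPM). The floor of 3 reads, under which a gene counts as not detected, was 0.047 to 0.093 CPM. Mean Runx1 RNA in ETV6-RUNX1 cells was 1.88 times that in WT cells in fetal liver and 1.77 times in bone marrow, and Etv6 RNA 1.45 and 1.37 times. HSC markers (11 of 11 above the filter) summed to at least 1695 CPM in every library. In fetal liver they summed to 1695 to 2072 CPM in WT and 4153 to 4279 CPM in ETV6-RUNX1 cells. There 9 of 11 were called higher by limma, against 24.8% of all tested genes. Xist RNA, which is made in female cells, was 0.175 to 1.27 CPM in bone marrow, 54.4 to 89.3 CPM in WT fetal liver and 51.7 to 70.1 CPM in ETV6-RUNX1 fetal liver. Among Y-linked genes in fetal liver, Uty was 3.26 times and Ddx3y, Eif2s3y and Kdm5d were 2.13, 1.93 and 1.63 times as high in ETV6-RUNX1 as in WT cells. In fetal liver the genotypes did not overlap for these 4 genes and overlapped for Xist, and the part of sex composition in the results below was not tested.

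The contractile member, Myl9 (ENSMUSG00000067818, chromosome 2, 156775420 to 156781658, plus strand), read 61.2, 87.3 and 60.9 CPM in ETV6-RUNX1 fetal liver replicates 1 to 3. It read 0.303, 0.0837 and 0.744 CPM in WT fetal liver and 0.305, 0.117 and 0.149 CPM in WT bone marrow. With the fusion the bone marrow values were 0.0270, 1.85 and 0 CPM, which is 1, 60 and 0 reads. All 9 libraries outside ETV6-RUNX1 fetal liver were below 2 CPM, and replicate 2 of ETV6-RUNX1 bone marrow was the highest of them. The lowest ETV6-RUNX1 fetal liver library was 32.9 times that library. In fetal liver the group means were 69.8 ± 15.2 CPM with ETV6-RUNX1 and 0.377 ± 0.337 CPM without it (SD, n = 3 each), which differ 185-fold.

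Col5a2 (ENSMUSG00000026042, chromosome 1, 45374321 to 45503282, minus strand), the collagen chain, read 94.2, 66.4 and 128 CPM in ETV6-RUNX1 fetal liver. In WT fetal liver it read 1.58, 0.719 and 0.450 CPM. WT bone marrow had 0.248, 0.0390 and 0.0498 CPM, and ETV6-RUNX1 bone marrow 1.97, 0.0927 and 0.0309 CPM. Again a single library of ETV6-RUNX1 bone marrow was above the rest of its group, but for Col5a2 it was replicate 1. In each bone marrow group the other 2 libraries held at most 3 reads. Its fetal liver means were 96.1 ± 30.7 CPM with ETV6-RUNX1 and 0.916 ± 0.589 CPM without it (SD, n = 3 each), a ratio of 105. Its replicates were the most spread of the 4 genes there, with a coefficient of variation of 32.0%.

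Thbs1 (ENSMUSG00000040152, chromosome 2, 118111876 to 118127133, plus strand), the secreted matricellular protein, read 2080, 2213 and 1692 CPM in ETV6-RUNX1 fetal liver and 86.7, 80.4 and 57.4 CPM in WT fetal liver. WT bone marrow had 7.20, 8.18 and 14.6 CPM. ETV6-RUNX1 bone marrow had 12.3, 95.8 and 3.93 CPM, so that its replicate 2 lay above all WT fetal liver libraries and the other 2 within or below the WT bone marrow range. Mean fetal liver levels were 1995 ± 270.5 CPM with the fusion and 74.9 ± 15.4 CPM without it (SD, n = 3 each), a ratio of 26.65.

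The protease inhibitor Serpinb2 (ENSMUSG00000062345, chromosome 1, 107511423 to 107535478, plus strand) read 644, 659 and 569 CPM in ETV6-RUNX1 fetal liver. It was already high in WT fetal liver, at 160, 100.4 and 142 CPM. WT bone marrow had 3.71, 0.156 and 15.4 CPM, and ETV6-RUNX1 bone marrow 1.19, 35.9 and 0 CPM. Both bone marrow groups were thus widely spread, whereas the ETV6-RUNX1 fetal liver replicates had a coefficient of variation of 7.68%. In fetal liver the means with and without the fusion were 624 ± 47.9 and 134 ± 30.5 CPM (SD, n = 3 each), a ratio of 4.65, the smallest of the 4 genes. The lowest ETV6-RUNX1 fetal liver library was 3.56 times the highest other library, WT fetal liver replicate 1.

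**Figure D1:**
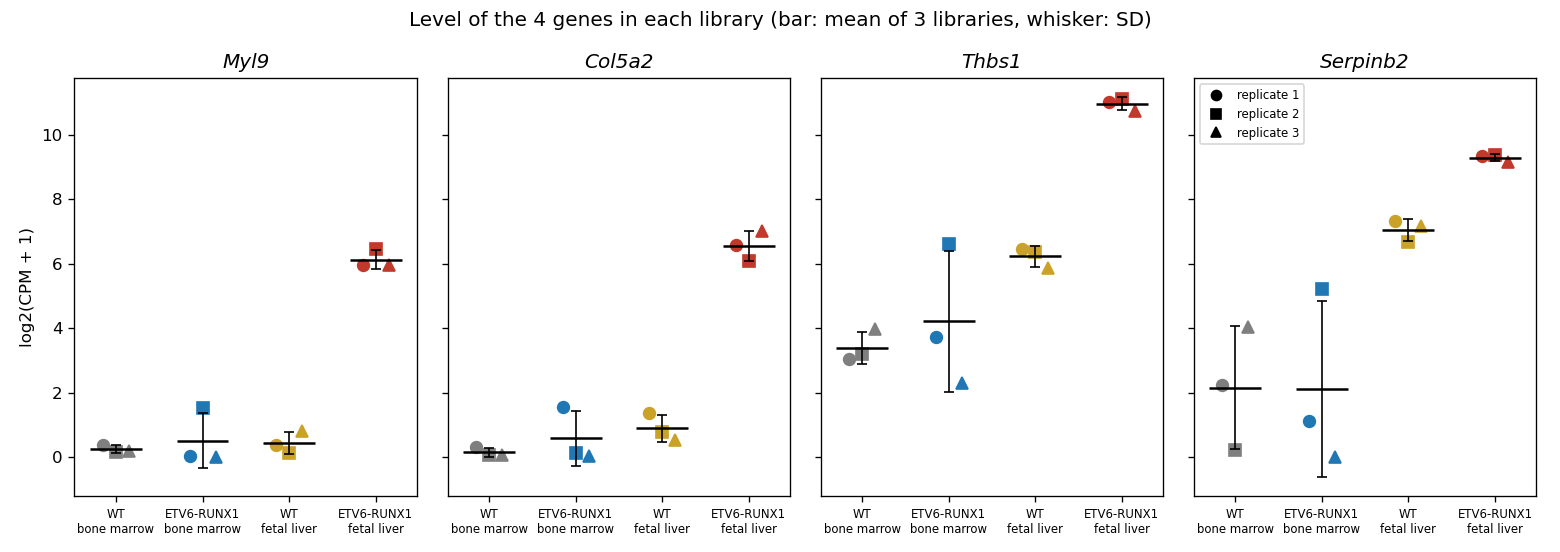
Level of each gene in each of the 12 libraries, for the 4 groups of 3 libraries. Each point is a library and each bar the group mean of the plotted values, on an axis that is linear near 0 and logarithmic above. ETV6-RUNX1 fetal liver is above every other library in all 4 panels, while the ETV6-RUNX1 bone marrow points spread widely, with Serpinb2 at 35.9 CPM in replicate 2 and 0 in replicate 3.

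Levels of different genes were compared per kilobase of exon. In ETV6-RUNX1 fetal liver the order was Thbs1 at 328 ± 44.5 CPM per kilobase (SD, n = 3), Serpinb2 at 266 ± 20.4, Myl9 at 60.1 ± 13.04 and Col5a2 at 10.02 ± 3.20. Thbs1 and Serpinb2 overlapped, since the lowest Thbs1 library was 278.6 and the highest Serpinb2 library 280.5 CPM per kilobase, while the steps down to Myl9 and to Col5a2 were wider than the spread. Among the 14271 tested genes these levels ranked 166 for Thbs1, 209 for Serpinb2, 1097 for Myl9 and 4904 for Col5a2. In WT fetal liver Serpinb2 led at 57.1 ± 12.99 CPM per kilobase, followed by Thbs1 at 12.3 ± 2.54, Myl9 at 0.324 ± 0.290 and Col5a2 at 0.0955 ± 0.0614. The leading pair was therefore in the other order in WT cells.

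The values that chose the members were the high levels in ETV6-RUNX1 fetal liver, and the differences that rest on them are given on the log2(CPM + 1) scale as a description. ETV6-RUNX1 minus WT in fetal liver was 5.69 for Myl9, 5.66 for Col5a2, 4.73 for Thbs1 and 2.23 for Serpinb2. Subtracting the same difference in bone marrow left 5.42, 5.22, 3.92 and 2.28 (the interaction). The ratio of the ETV6-RUNX1 means, fetal liver over bone marrow, was 111 for Myl9, 138 for Col5a2, 53.4 for Thbs1 and 50.5 for Serpinb2. These comparisons share libraries. Myl9 reached 1 CPM in 1 and Col5a2 in 2 of the 9 other libraries, so both entered the set of tested genes through ETV6-RUNX1 fetal liver, and their differences among the other groups are given below as values, with no test. Thbs1 reached it in 9 and Serpinb2 in 7.

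Whether Thbs1 and Serpinb2 differed between sources without the fusion could be tested, since the rule asked only which group was highest. Both were higher in WT fetal liver than in WT bone marrow. The log2 difference was 4.89 ± 1.04 (SE) for Serpinb2 (limma adjusted p = 0.00654; 134 against 6.42 CPM, a ratio of 20.9). For Thbs1 it was 2.83 ± 0.70 (limma adjusted p = 0.0175; 74.9 against 9.98 CPM, a ratio of 7.50). In both, all 3 WT fetal liver libraries were above all 3 WT bone marrow libraries, as was so for 10.6% of all tested genes. Of all tested genes 11.1% were called in this comparison, 3.38% higher and 7.77% lower in fetal liver. For Col5a2 the difference was 0.75 ± 0.37, with libraries that did not overlap either, at 2 to 13 reads per library in bone marrow. Its size depends on the pseudocount and the tool, at 2.24 with a pseudocount of 0.1, 2.99 in edgeR and 3.05 in DESeq2. Myl9 gave 0.19 ± 0.34, with overlap. Read as a label, "fetal-high" held in WT cells for Thbs1 and Serpinb2, and was not tested for the other members. The members were chosen with earlier results of these data known, so this test gives the label no independent support.

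The Thbs1 call was lost without WT bone marrow replicate 2 (2.73, limma adjusted p = 0.0688), WT fetal liver replicate 1 (2.71, limma adjusted p = 0.0621) or WT fetal liver replicate 2 (2.76, limma adjusted p = 0.0530). It was also lost when all genes with reads were tested (adjusted p = 0.108), while its direction held throughout. The Serpinb2 call passed in every fit with a library left out, was 3.92 (limma adjusted p = 0.0407) without WT bone marrow replicate 2, and was lost with all genes tested (limma adjusted p = 0.0591) and in edgeR (4.52, adjusted p = 0.0512). DESeq2 gave no adjusted p for Serpinb2. The spread was estimated over all 12 libraries, so p also moved with libraries outside this comparison. With an ETV6-RUNX1 library left out, the differences were unchanged. The limma adjusted p then ran from 9.75e-05 to 0.0253 for Thbs1 and from 0.000341 to 0.0104 for Serpinb2. Both low ends came without ETV6-RUNX1 bone marrow replicate 2.

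The other comparison open to a test was ETV6-RUNX1 against WT in adult bone marrow, and neither Thbs1 nor Serpinb2 passed it. The log2 difference was 0.81 ± 0.70 (SE) for Thbs1 (limma adjusted p = 0.440, unadjusted 0.267) and −0.05 ± 1.04 for Serpinb2 (limma adjusted p = 0.978, unadjusted 0.963). On the recovered reads edgeR gave an adjusted p of 0.111 and 0.683, and DESeq2 0.113 for Thbs1 and none for Serpinb2. The background was 19.4% of tested genes called, in either direction, and 34.5% of tested genes without overlap between the groups; both genes overlapped. For Serpinb2 the ratio of mean CPM was 1.92 although the mean log2 difference was below 0, since the mean rests on replicate 2. A missed threshold does not show that levels were alike, as the spread in ETV6-RUNX1 bone marrow was large. The values for Myl9 and Col5a2, with 0 to 3 reads in 2 and 4 of the 6 compared libraries, were 0.27 ± 0.34 and 0.43 ± 0.37.

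That spread came from single libraries. Replicate 2 of ETV6-RUNX1 bone marrow was 137 times the mean of the other 2 libraries for Myl9, 11.8 times for Thbs1 and 60.4 times for Serpinb2, and replicate 1 was 31.9 times for Col5a2. Leaving out replicate 2 turned the bone marrow difference to −0.23 for Myl9, −0.38 for Thbs1 (limma adjusted p = 0.530) and −1.60 for Serpinb2 (limma adjusted p = 0.182). Leaving out replicate 1 turned Col5a2 to −0.062. Without replicate 3, the library with the lowest Thbs1, the Thbs1 difference was 1.77 and passed (limma adjusted p = 0.0401).

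**Figure D2:**
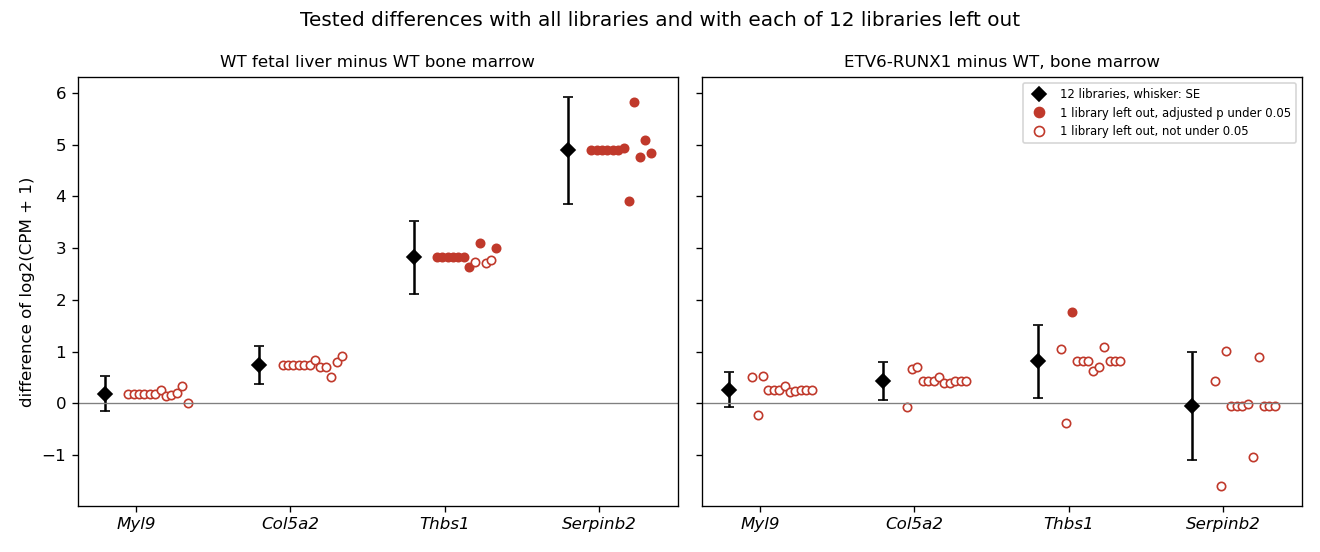
Log2 difference of each gene in the 2 comparisons that the rule for choosing genes did not name, with all 12 libraries and with each library left out in turn. Each point is a fit. In WT cells the source differences of all 4 genes stay above 0 in every fit. The lowest are 2.64 for Thbs1, 3.92 for Serpinb2, 0.51 for Col5a2 and 0.00063 for Myl9. All 4 bone marrow genotype differences cross 0 when a single library is left out.

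Likeness between the members across groups follows from their choice, and differed within groups. Over the 12 libraries, which share the 4 groups, Pearson's r of log2(CPM + 1) ranged over the 6 pairs from 0.72 for Col5a2 with Serpinb2 and 0.74 for Myl9 with Serpinb2 to 0.96 for Myl9 with Col5a2. After the group means were subtracted, r was 0.87 for Thbs1 with Serpinb2, 0.77 for Myl9 with Thbs1 and 0.75 for Myl9 with Serpinb2. Col5a2 did not follow them, with −0.46 against Myl9, −0.12 against Thbs1 and −0.16 against Serpinb2. These are descriptions over 12 libraries and are weighted by the ETV6-RUNX1 bone marrow libraries that stood apart.

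The partners of Myl9 were examined next. In fetal liver, 20 of the 30 tested genes of actomyosin contraction (of 39 listed) were higher with ETV6-RUNX1 and 0 were lower, where 24.8% of all tested genes were higher and 18.3% lower; the list median was 0.74 and that of all genes 0.08 (log2). Myh9, the heavy chain of nonmuscle myosin, rose from 343 ± 68.6 to 797 ± 106 CPM (SD, n = 3 each; log2 difference 1.22, limma adjusted p = 0.00129). Rock2, a kinase that keeps the light chain phosphorylated, rose from 47.7 ± 5.92 to 106 ± 4.67 CPM (1.15, limma adjusted p = 8.37e-05). Mylk, the kinase that activates the light chain, rose from 51.5 ± 10.7 to 87.4 ± 4.04 CPM (0.77, limma adjusted p = 0.00123). Ppp1r12a, the targeting subunit of the phosphatase that reverses it, rose from 73.2 ± 8.48 to 140 ± 13.9 CPM (0.93, limma adjusted p = 0.000276). Kinases and phosphatase subunit thus rose together, and the tropomyosin Tpm3 rose by 0.59 (limma adjusted p = 0.00104). Rock1 rose by 0.48 (limma adjusted p = 0.0197), a call lost without WT fetal liver replicate 1 (0.0683), WT fetal liver replicate 3 (0.0614) or ETV6-RUNX1 fetal liver replicate 3 (0.0691). The smooth muscle genes Acta2 and Tagln stayed under the filter, with at most 0.203 and 0.925 CPM as a group mean. The count of 20 ranged from 17 to 22 over the alternatives. By edgeR and DESeq2, too, 0 of the 30 were lower, and 1 was lower at an unadjusted limma p under 0.05. Of the 30, 7 were called in bone marrow, all higher, where 14.4% of all tested genes were higher and 4.93% lower. Myh9 (0.81, limma adjusted p = 0.0341) and Rock2 (0.57, limma adjusted p = 0.0272) were among them, each call lost in 7 of 22 alternatives. Neither gene passed the interaction test (limma adjusted p = 0.484 and 0.129). Mylk, Ppp1r12a, Tpm3 and Rock1 did not pass in bone marrow.

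Of 7 other myosin light chains tested (of 11 listed), 1 was higher and 2 were lower with ETV6-RUNX1 in fetal liver, shares near the 24.8% and 18.3% of all tested genes, with a median of −0.06. Myl12a and Myl12b, the closest relatives of Myl9 in nonmuscle cells, read 455 ± 62.4 and 431 ± 32.6 CPM in WT and 433 ± 13.4 and 393 ± 34.7 CPM in ETV6-RUNX1 fetal liver (SD, n = 3 each). Neither passed (limma adjusted p = 0.738 and 0.518). Myl6, the essential light chain, was 478 against 710.2 CPM (0.58, limma adjusted p = 0.0230), a call lost in 6 of 22 alternatives, of which 2 left out a library, WT fetal liver replicate 2 (0.108) or ETV6-RUNX1 fetal liver replicate 2 (0.0945). The chains that fell were Mylpf, a fast skeletal muscle chain, and Myl10, and the Myl10 call was lost in 6 of 22 alternatives, with an adjusted p of 0.191 without WT fetal liver replicate 2 and of 0.0746, 0.0553 and 0.0876 without ETV6-RUNX1 fetal liver replicates 1 to 3.

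The regulators tied to the CArG box and to YAP/TEAD gave 5 of 12 tested genes higher (of 16 listed) and 0 lower in fetal liver by limma. The shares of all tested genes were 24.8% higher and 18.3% lower, and the list median was 0.38. The count of 5 ranged from 2 to 6 over the alternatives. For this list and the collagens below, 0 genes were lower at an unadjusted p under 0.05, by edgeR or by DESeq2. Srf itself read 17.0 ± 3.49 CPM in WT and 15.1 ± 0.368 CPM in ETV6-RUNX1 fetal liver (limma adjusted p = 0.576). Its coactivator Mrtfb rose from 49.1 ± 7.34 to 95.0 ± 5.998 CPM (0.95, limma adjusted p = 0.000689), and Mrtfa was 48.4 against 66.6 CPM (0.46, limma adjusted p = 0.101). The other genes that rose were Yap1, Wwtr1, Amotl2 and Fhl2. Of the common targets of this pathway, Ccn1 read 1.92 and 3.14 CPM (limma adjusted p = 0.0960) and Ccn2 at most 5 reads in any library. Among the 12 regulators, 4 were higher and 0 lower in bone marrow, against 14.4% and 4.93% of all tested genes. Mrtfb was 1 of the 4 (0.63, limma adjusted p = 0.0231), a call lost in 4 of 22 alternatives.

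The other collagens did not follow Col5a2 closely. Col5a1, the chain that pairs with Col5a2 in most type V collagen, had at most 1 read in any library, and Col5a3 a group mean of at most 0.426 CPM. With ETV6-RUNX1 in fetal liver, 24.8% of all tested genes were higher and 18.3% lower. Of 21 other collagens listed, 7 were tested, and 3 were higher and 0 lower there (median 0.29). These were the basement membrane chains Col4a1, from 40.3 ± 3.54 to 130.3 ± 19.1 CPM (1.66, limma adjusted p = 6.94e-07), Col4a2 (1.80, limma adjusted p = 6.96e-07) and Col18a1 (1.45, limma adjusted p = 3.48e-05). All 3 were also higher with ETV6-RUNX1 in bone marrow, by 1.06, 1.38 and 1.10. No collagen in the list passed the interaction test (limma, 0 of 7, where 5.56% of tested genes were higher and 3.62% lower), 2 of 7 had an unadjusted p under 0.05, and edgeR called 0 and DESeq2 1. Among genes that process collagen, 16 of 28 were tested and 3 rose in fetal liver, 18.75% against 24.8% of all tested genes. They were the collagen chaperone Serpinh1 (4.09 to 27.3 CPM, 2.49), the cross-linking enzyme Loxl3 (1.97) and Plod1 (0.98). P3h3 fell by 0.94 on the log2 scale, and the list median was 0.07.

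Relatives of thrombospondin-1 were low, with Thbs2 and Thbs3 at group means of at most 0.499 and 0.762 CPM. With ETV6-RUNX1 in fetal liver, 24.8% of all tested genes were higher and 18.3% lower. Among 12 tested matricellular genes (of 24 listed), 6 rose and 1 fell there, with a median of 1.20. Those that rose were Ccn3 (7.42 to 26.9 CPM, 1.67, limma adjusted p = 6.52e-05), Postn, Tgfbi, Fbn1, Ltbp3 and Lgals3, and Fn1, fibronectin, fell. The calls of Lgals3 and Fn1 were lost in 9 of 21 and 6 of 22 alternatives. Without WT fetal liver replicates 1 and 2 the adjusted p was 0.109 and 0.131 for Lgals3 and 0.109 and 0.112 for Fn1. Without ETV6-RUNX1 fetal liver replicates 1 and 3 it was 0.162 and 0.0940 for Lgals3, and without replicates 2 and 3 it was 0.123 and 0.0638 for Fn1. The count of 6 ranged from 3 to 8. Of the 12 genes, 3 were higher and 2 lower in bone marrow, against 14.4% and 4.93% of all tested genes. Ccn3 was among the higher ones (1.59, limma adjusted p = 0.000658), a call that held in all 22 alternatives.

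The receptors and partners of thrombospondin-1 were, of the 9 pathway lists, the one in which the largest share of tested genes rose. In fetal liver 12 of 16 were higher and 1 lower, with a median of 0.89, against 24.8% and 18.3% of all tested genes. CD36, a scavenger receptor that binds thrombospondin-1, read 0.346 to 0.770 CPM in WT and 11.1 to 20.8 CPM in ETV6-RUNX1 fetal liver; Cd36 rose by 3.41 (limma adjusted p = 1.1e-06). Itgb3, the integrin beta 3 chain, rose from 229 ± 79.6 to 978 ± 200.2 CPM (2.12, limma adjusted p = 0.00207). Cd47 was 358 ± 95.2 and 633 ± 65.2 CPM (0.85, limma adjusted p = 0.0422), a call lost in 8 of 22 alternatives, with an adjusted p of 0.0792 and 0.168 without WT fetal liver replicates 2 and 3, and 0.118, 0.0712 and 0.0770 without ETV6-RUNX1 fetal liver replicates 1 to 3. The syndecan Sdc1 fell by 1.39 on the log2 scale. In bone marrow 5 of the 16 were called, all higher, where 14.4% of all tested genes were higher. Neither Cd36 (0.46, limma adjusted p = 0.3003) nor Itgb3 (−0.08, limma adjusted p = 0.924) was among the 5. The count of 12 ranged from 9 to 13.

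Around Serpinb2, the proteases that it inhibits were barely detected, with Plau and Plat at group means of at most 0.485 and 0.206 CPM. Of 7 tested genes of the plasminogen system (of 15 listed), 3 rose and 1 fell with ETV6-RUNX1 in fetal liver, with a median of −0.17. Among all tested genes 24.8% were higher and 18.3% lower there. The urokinase receptor Plaur rose from 23.5 ± 2.44 to 37.3 ± 8.49 CPM (0.63, limma adjusted p = 0.00758), a call lost with quantile normalization (0.0765). The plasminogen receptor Plgrkt rose from 197 ± 19.5 to 317 ± 55.1 CPM (0.68, limma adjusted p = 0.00242) and Lrp1, which clears protease complexes, also rose. Thbd, thrombomodulin, fell. Among clade B serpins 7 of 15 were tested, and Serpinb6a (0.98), Serpinb8 (1.34) and Serpinb9 (1.98), an inhibitor of granzyme B, rose in fetal liver. Serpinb1a fell by 0.55 on the log2 scale, a call lost without ETV6-RUNX1 fetal liver replicate 1 (0.0572). None of the 7 was called in bone marrow by limma, against 19.4% of all tested genes. Of the 7, 2 had an unadjusted limma p under 0.05, and edgeR and DESeq2 called 1 each.

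**Figure D3:**
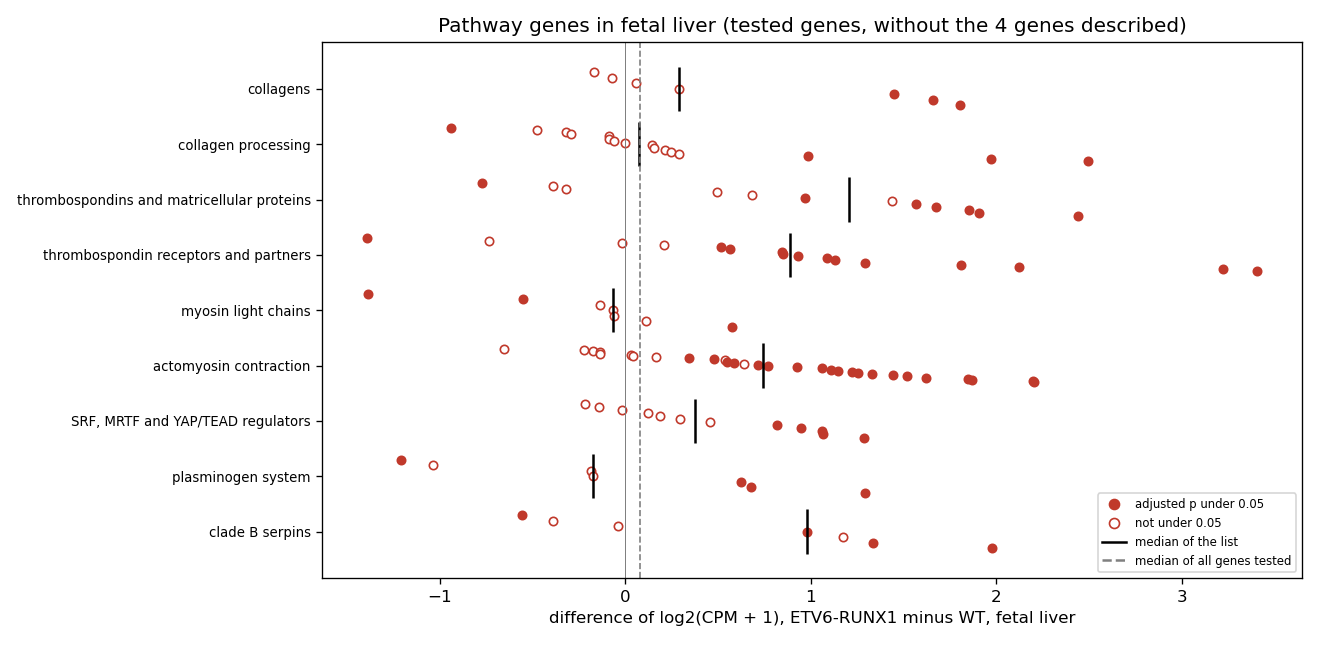
Log2 difference of ETV6-RUNX1 against WT in fetal liver for every tested gene of the 9 pathway lists, one row per list; each point is a gene, filled where limma called it, and the dashed line is the median of all genes tested. Most actomyosin and thrombospondin receptor genes lie to the right of 0.08, while the myosin light chains lie on both sides of it.

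In WT cells 7 of the 30 actomyosin genes were called between sources, all higher in fetal liver, where 3.38% of all tested genes were higher and 7.77% lower. Of the 7 myosin light chains 2 were higher and 2 lower, among them Myl12a (0.58, limma adjusted p = 0.0155) and, in the other direction, Myl12b (−0.79, limma adjusted p = 0.00428). The Myl12a call was lost without WT bone marrow replicate 2 (0.0932) or WT fetal liver replicate 1 (0.0524) or 3 (0.0931). Serpinb10, which overlaps Serpinb2 on the same strand, was higher in WT fetal liver (2.95, limma adjusted p = 0.00260), at 55.4 ± 8.05 against 6.69 ± 3.22 CPM (SD, n = 3 each). Reads of the sequence that Serpinb2 and Serpinb10 share could be assigned to either gene. In ETV6-RUNX1 fetal liver Serpinb10 was 130.2 ± 40.5 CPM, and its genotype difference there did not pass (1.17, limma adjusted p = 0.0973).

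Markers of fibroblasts and of smooth muscle, cells known to make collagen and contractile proteins, were mostly at or near 0. In bulk RNA, fewer cells of a type and less RNA per cell cannot be told apart. Of 10 smooth muscle and pericyte markers, 9 were below 1 CPM in every group, and their sum was 2.999 to 7.15 CPM over the 12 libraries. The 12 fibroblast and stromal markers summed to 6.96 to 18.2 CPM. Fetal liver replicates 1 to 3 had sums of 12.5, 6.96 and 7.35 CPM in WT and 8.95, 18.2 and 16.1 CPM in ETV6-RUNX1 cells, which overlap. Of the 12 markers, 4 were tested, and in fetal liver Postn was higher with ETV6-RUNX1, while Pdgfrb and Thy1 were lower. The shares of all tested genes were 24.8% higher and 18.3% lower. The fibroblast genes Col1a1, Col3a1 and Pdpn had group means of at most 0.263, 0.118 and 0.0619 CPM. Dcn was 0 in the other 9 libraries and 0.0420 to 1.29 CPM in ETV6-RUNX1 fetal liver, and Lum reached 3.99 CPM in 1 library of that group. In fetal liver the 12 hepatoblast markers summed to 85.8 to 90.8 CPM in WT and 49.5 to 68.1 CPM in ETV6-RUNX1 cells, with Alb at a mean of at most 0.120 CPM.

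Several blood and vessel marker lists also differed between the groups. Megakaryocyte markers, all 12 tested, summed to 2088 to 2707 CPM in bone marrow from WT and 1373 to 3160 CPM in that from ETV6-RUNX1 mice. The sums were 4251 to 5874 CPM in WT fetal liver and 9573 to 10776 CPM in ETV6-RUNX1 fetal liver, above every other library. By limma 8 of 12 were higher and 1, Gp9, was lower with ETV6-RUNX1 in fetal liver, against 24.8% and 18.3% of all tested genes. The count of higher genes ranged from 4 to 11 over the alternatives. It was 4 and 5 without WT fetal liver replicates 2 and 3, 4, 4 and 5 without ETV6-RUNX1 fetal liver replicates 1 to 3, 5 by edgeR and 4 by DESeq2. The same number, 8 of 12, was higher in WT fetal liver than in WT bone marrow, against 3.38% of all tested genes. In bone marrow 1, Gp9, was called, lower with ETV6-RUNX1, where 19.4% of all tested genes were called. Itgb3 is in this list as well as among the thrombospondin receptors. Within ETV6-RUNX1 bone marrow the sums were 1743, 3160 and 1373 CPM in replicates 1 to 3, and Myl9, Thbs1 and Serpinb2 were highest in replicate 2, as was this sum. Macrophage and monocyte markers, 8 of 14 tested, were higher in fetal liver with ETV6-RUNX1 for 7, against 24.8% of all tested genes. They summed to 44.4 to 52.7 CPM in WT and 139.2 to 190.2 CPM in ETV6-RUNX1 cells. Of these, Csf1r rose from a mean of 0.824 to 10.02 CPM and Cd68 from 43.5 to 104.6 CPM, while C1qa, C1qb, C1qc and Marco, which are not tested, had group means of at most 0.0103, 0.164, 0.206 and 0.0280 CPM. In bone marrow the macrophage sums were 39.8 to 66.1 CPM in WT and 101.4 to 129.04 CPM in ETV6-RUNX1 cells. Mast cell and basophil markers summed to 94.7 to 137.1 CPM in WT and 78.5 to 114.5 CPM in ETV6-RUNX1 fetal liver. Of 10 tested endothelial markers 8 were higher with ETV6-RUNX1 in fetal liver, also against 24.8% of all tested genes. The endothelial sum was 470.4 to 634.5 CPM in WT and 1159 to 1401 CPM in ETV6-RUNX1 fetal liver. The part of these cell types in the levels of the 4 genes was not tested.

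**Figure D4:**
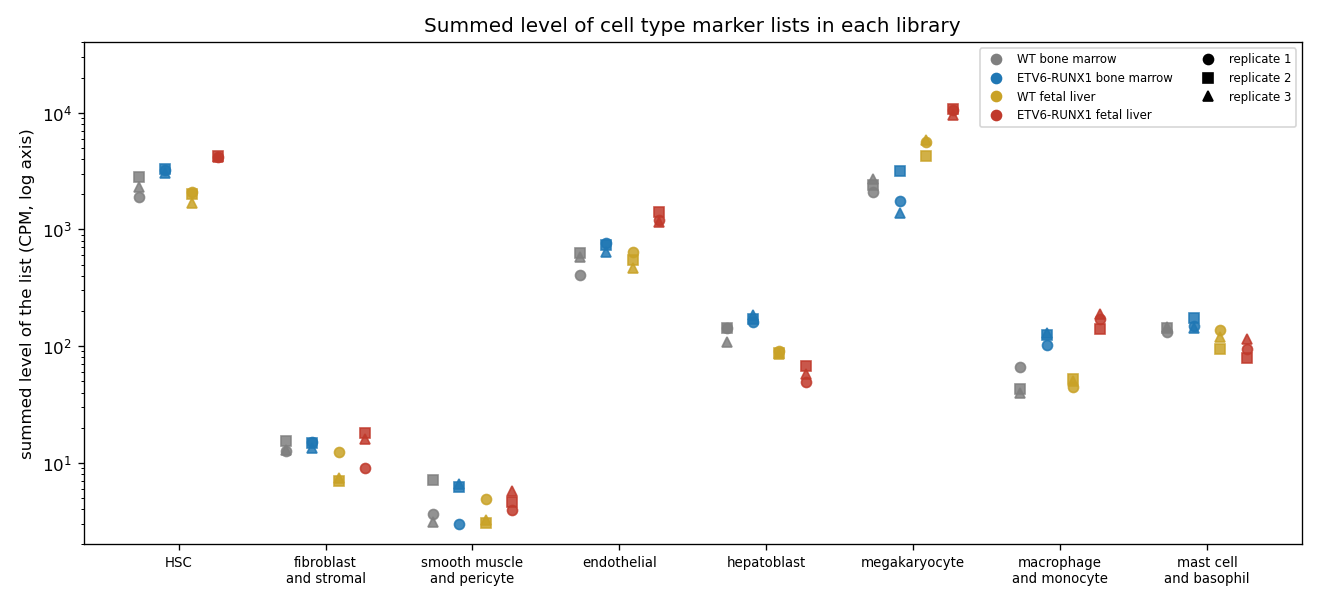
Summed level, in CPM on a logarithmic axis, of each cell type marker list in each of the 12 libraries; each point is a library, coloured by group. The smooth muscle sums stay between 2.999 and 7.15 CPM in all groups, while the megakaryocyte sums are highest in the 3 ETV6-RUNX1 fetal liver libraries.

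**Figure D5:**
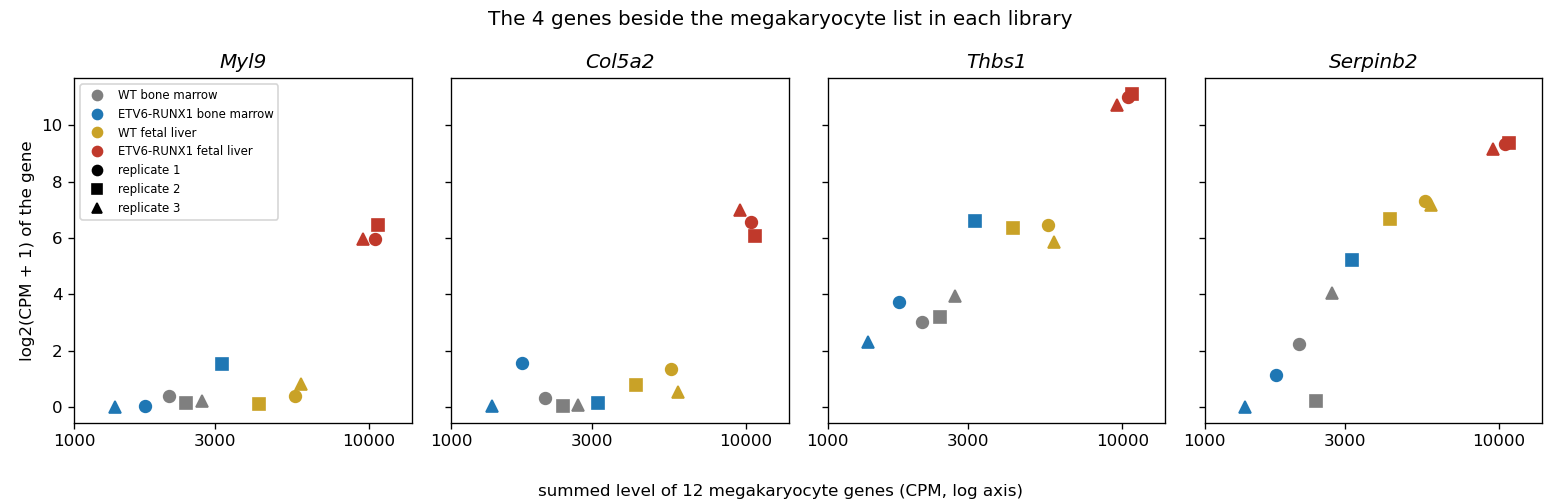
Level of each of the 4 genes against the summed level, in CPM, of the 12 megakaryocyte markers in the same library. Each point is one of the 12 libraries, coloured by group. The ETV6-RUNX1 fetal liver libraries are highest on both axes, and replicate 2 of ETV6-RUNX1 bone marrow, at 3160 CPM, is the highest of its group on the marker axis.

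The genes next to the members were examined for the same pattern. Myl9 lies 11.1 kb from Dlgap4, which was 0.67 higher (log2) with ETV6-RUNX1 in fetal liver (limma adjusted p = 0.00341), and 58.3 kb from Tgif2 (0.15, limma adjusted p = 0.689). Col5a2 lies 24.6 kb from Col3a1, at most 0.118 CPM as a group mean, and 292 kb from Wdr75, which fell by 0.90 on the log2 scale (limma adjusted p = 7.59e-05). Thbs1 lies 3.29 kb from Fsip1, under the filter, and 769 kb from Rasgrp1 (0.86, limma adjusted p = 0.0199). Serpinb2 lies 58.7 kb from Serpinb7, with a mean of 0.274 CPM in ETV6-RUNX1 fetal liver and 0 in the other groups, and 54.5 kb from Serpinb8. It overlaps Serpinb10 on the same strand, and 10.4% of the 50-base stretches of Serpinb2 transcripts also occur in Serpinb10. Reads of that stretch could be assigned to either gene, so the Serpinb2 and Serpinb10 values are uncertain to that extent. Thbs1 overlaps the antisense RNA Gm29233 over 1.89% of its stretches, and Gm29233 was at most 0.0140 CPM as a group mean. Col5a2 overlaps Gm38211 on its own strand, a gene model not analysed here. Myl9 and Col5a2 shared no 50-base stretch with another gene.

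The genes most like each member over the 12 libraries, by Pearson's r of log2(CPM + 1) as a description, were taken by rule, 5 for each. For Myl9 they included Nck2 (0.99), Srpx2, P2ry12 and Sema6a. For Col5a2 they were Limch1 (0.99), Syt13, Tmem202, Gsta1 and Ttll6. For Thbs1 they were Sptb (0.99), Cyp4x1, Rasgrp2, Mfap3l and Ubash3b, and for Serpinb2 Slc6a4 (0.98), Dhrs3, Cd226, Mpig6b and Clec1b. Clec1b is also in the megakaryocyte marker list used above, and whether the other genes mark that cell type was not examined. The 4 sets of 5 shared no gene. Over deviations from the group means the closest genes were Ly6g6f (0.95) for Myl9, Gpr180 (0.97) for Col5a2, Fyb2 (0.98) for Thbs1 and Cd226 (0.97) for Serpinb2. Fyb2 averaged 6.02 CPM in ETV6-RUNX1 bone marrow, 0.0672 CPM in WT bone marrow, 0.00517 CPM in WT fetal liver and 0 in ETV6-RUNX1 fetal liver. It was at or under the floor in 8 of the 12 libraries, so its r rests mainly on ETV6-RUNX1 bone marrow. Cd226 was among the 5 closest to Serpinb2 by both measures.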

How the data were processed

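The members and gene lists were chosen with earlier results of these data known. The authors deposited CPM per gene for 12 libraries. Dividing each column by its smallest step gave whole reads for 100% of values (tolerance 0.01 reads), so reads and library totals were recovered, and the CPM carried no further scaling. RNA came from a Norgen single-cell kit and stranded total RNA libraries sequenced as read pairs, per the labels' protocols. The submitters' processing notes name GRCm38, bcl2fastq, STAR 2.5.1a, Subread, featureCounts 1.4.6-p5, Salmon 0.8.2, edgeR and limma without roles; the annotation and the strand setting are not given in the sources used here, so overlapping genes are uncertain. Of 40757 entries, 276 repeats were dropped; 11203 of the 40481 genes kept were without reads; 40254 IDs (99.44%) matched GENCODE M21 (GRCm38), used for positions, exon lengths and shared 50-base stretches.

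The 14271 genes that reached 1 CPM in at least 3 libraries were tested two-sided with limma 3.58.1 in R 4.3.3 on log2(CPM + 1), with a mean-variance trend, 4 group coefficients over all 12 libraries and Benjamini-Hochberg adjustment over all tested genes at 0.05. A fold on this scale understates the change of low genes. The method was run on simulated data with the same dispersion for every gene and group. That run does not cover single libraries that stand apart from their group. Fetal liver and interaction values of the members, which the rule used, were not tested, nor were Myl9 and Col5a2 elsewhere, since they passed the filter through ETV6-RUNX1 fetal liver alone. Floors of 3 reads take account of counting error alone, as PCR copies were not told apart. Replicate numbers were not used to pair the libraries in the main fit, and whether same-numbered libraries belong together is not known.

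Named genes were the members, their known partners and, per pathway list, the 3 genes with the highest mean CPM among those tested. Other list genes, named where few were called, were chosen after their values were seen. Some genes that the rule names are not reported here. The alternatives tried were all genes with reads, a pseudocount of 0.1, a mean of at least 5 CPM, median-of-ratios scaling, quantile normalization, a replicate block, array weights, edgeR 4.0.16 (quasi-likelihood, TMM) and DESeq2 1.42.0 on recovered reads, only the 6 libraries compared (not for the interaction), and each library left out in turn. edgeR estimates its folds on its own scale, without the pseudocount of 1.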

Additional observations from a re-analysis of the deposited data

Results flagged for a closer look

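The effect of ETV6-RUNX1 differed between fetal liver and bone marrow for 3 of 37 named genes tested, not counting the members, all 3 with the larger effect in fetal liver, by limma's test of the difference itself (the interaction, with Benjamini-Hochberg adjustment over all tested genes, of which 5.56% were higher and 3.62% lower). For Cd36, a receptor of thrombospondin-1, the fetal liver effect exceeded the bone marrow effect by 2.94 on the log2 scale (limma adjusted p = 0.000844), and this call held in all 21 alternatives. All 3 ETV6-RUNX1 fetal liver libraries were above the other 9 for Cd36. For Itgb3, the integrin beta 3 chain, the difference was 2.20 (limma adjusted p = 0.0487); it was lost in 15 of 21 alternatives, with values of 1.65 to 2.80 and adjusted p of 0.00257 to 0.174. For Serpinb6a, a clade B serpin, it was 0.69 (limma adjusted p = 0.0489) and was lost in 16 of 21 alternatives. Itgb3 is also a megakaryocyte marker. Groups of 3 libraries are too small for a test of single outlying libraries.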

How the results depend on the processing

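The main limma fit called 2763 genes for ETV6-RUNX1 in bone marrow, 1591 for source in WT cells, 6151 for ETV6-RUNX1 in fetal liver and 1311 for the interaction. In bone marrow the count was 1601 with only the 6 libraries compared and 1493 to 2901 with a library left out; the low end came without ETV6-RUNX1 bone marrow replicate 2, and replicate 1 of that group gave 1829. For source it was 4401 with array weights and 864 to 2785 with a library left out (without WT bone marrow replicates 2 and 1, respectively; 899 without WT fetal liver replicate 3). For the interaction it was 767 with all genes with reads, 3637 with array weights and 697 to 2329 with a library left out (697 and 762 without ETV6-RUNX1 fetal liver replicates 1 and 2, 868 without replicate 1 of ETV6-RUNX1 bone marrow, 764 and 738 without WT fetal liver replicates 2 and 3, 2329 and 731 without WT bone marrow replicates 1 and 2). In fetal liver it was 4654 to 6634 with a library left out and 7825 with array weights. The replicate block gave 2334, 1425, 5838 and 1033, and 18 same-numbered pairs of libraries had r from −0.44 to 0.39, 7 of them over 0.1. Higher calls were 74.5% of calls in bone marrow but 48.5% with quantile normalization, 53.0% with median-of-ratios scaling, 50.5% in edgeR and 52.0% in DESeq2. In fetal liver they were 57.6% but 42.0% with quantile normalization, for source 30.3% but 40.7% and 41.5% with median-of-ratios scaling and quantile normalization, and for the interaction 60.6% but 73.8% and 73.5% with median-of-ratios scaling and edgeR, 46.4% with array weights and 48.5% with replicate 3 of ETV6-RUNX1 fetal liver left out. The median of all genes in bone marrow moved from 0.13 to 0.01 (log2) with median-of-ratios scaling, and in fetal liver from 0.08 to −0.10 with quantile normalization.

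The bone marrow differences of the 4 members changed sign with a library left out: the values ran from −0.23 to 0.53 for Myl9, −0.062 to 0.70 for Col5a2, −0.38 to 1.77 for Thbs1 and −1.60 to 1.01 for Serpinb2. The low ends came without ETV6-RUNX1 bone marrow replicate 2, for Col5a2 without replicate 1. Serpinb2, at −0.05, was 0.32 with array weights, 0.83 in edgeR, 0.89 without WT bone marrow replicate 3, and 0.44 and 1.01 without ETV6-RUNX1 bone marrow replicates 1 and 3. The cause was not tested. Of 64 called values of other named genes, 42 kept call and direction in every alternative run, 22 lost the call at least once and 0 changed sign. Of 34 list counts, 18 moved by more than 1.5 times at least once. Depth limits Myl9 and Col5a2 outside ETV6-RUNX1 fetal liver, where several libraries hold 3 reads or fewer.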
